A study of Mus musculus with 8 samples.

Results

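Glycolysis breaks glucose down to pyruvate, and lactate dehydrogenase converts pyruvate to lactate and back. The present account covers 10 genes of this route, chosen by name: the hexokinases Hk1 and Hk2, the phosphofructokinases Pfkl, Pfkm and Pfkp, the aldolases Aldoa and Aldoc, the pyruvate kinase Pkm, and the lactate dehydrogenases Ldha and Ldhb. All 10 were among the 11315 genes of the RNA files. The authors' promoter, exon or intron columns assigned 515 of 1497075 profiled sites to them, and 194 of these were deep enough to be tested.

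RNA and 5-hydroxymethylcytosine (5hmC) were measured in adult oligodendrocyte progenitor cells (aOPC) and adult oligodendrocytes (aOL), sorted from mouse brain by EGFP fluorescence. All mice were C57BL/6 at postnatal day 60, with no treatment named, and were of either sex per the study's methods. The aOPC came from Pdgfra-H2BEGFP mice and the aOL from Plp-EGFP mice, so population and reporter line cannot be told apart, and each sort holds every cell in which that promoter drives enough EGFP. Each population had 2 RNA libraries and 2 libraries of reduced representation hydroxymethylation profiling (RRHP), numbered replicates 2 and 3, with DNA and RNA taken from the same cell pellet. Replicates numbered 1 were not analysed here. Groups were taken from the sample titles, because the aOL RRHP samples carry a tissue label with the PDGFRa reporter. For aOL RNA the titles say pre-myelinating and the protocol says myelinating cells.

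In the brain, oligodendrocytes are known for burning glucose largely by glycolysis and for passing lactate to axons through monocarboxylate transporters. Hexokinase and phosphofructokinase are the early, regulated steps, aldolase splits the hexose, pyruvate kinase yields pyruvate, and lactate dehydrogenase regenerates the NAD+ that the pathway needs. Several steps have isozymes. Subunit A of lactate dehydrogenase is usually linked to lactate formation and subunit B to lactate use, and Aldoc is the aldolase typical of astrocytes. 5hmC is made by TET enzymes from methylated cytosine and is often found in the bodies of transcribed genes.

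The RNA values were log2 levels, quantile-normalized by the authors, and a level here means such a value. Across 11133 tested genes the Pearson correlation was 0.93 between the aOPC libraries and 0.986 between the aOL libraries, and aOPC replicate 2 was as close to the aOL libraries (0.924 and 0.928) as to aOPC replicate 3. Pdgfra, which marks OPCs, had levels of 7.54 and 5.47 in aOPC against 4.98 and 1.63 in aOL. Cspg4, a proteoglycan of OPCs, overlapped between the populations. Of 10 OPC markers tested, 0 were higher in aOL and 3 were lower at an unadjusted p under 0.05, namely Neu4 (-5.17), Vcan (-4.20) and Sox6 (-1.72), and the median difference was -0.99. Differences above 0 were seen for 3 of the 10, Ptprz1 (1.06), Matn4 (0.80) and Lhfpl3 (0.04). Of these, only Matn4 did not overlap. The myelin gene Mbp was high in every library, at 19.58 and 17.55 in aOPC against 19.17 and 19.40 in aOL. Of 11 oligodendrocyte markers, 1 was higher in aOL and 4 were lower at an unadjusted p under 0.05. Over all tested genes, 12.1% were higher and 12% lower at that p. The lower markers were Opalin (-0.98), Cldn11 (-0.76), Mog (-0.65) and Aspa (-0.53), all without overlap. Higher without overlap were 3, namely Ugt8a (0.79), Ermn (0.57) and Cnp (0.24), of which Ugt8a had the p under 0.05. The median difference of this list was 0.004. Of 9 marker lists, none had a gene past the threshold for RNA given below. RRHP library totals ran from 7113237 (aOPC replicate 2) to 27057859 (aOL replicate 3), and 5.74% of the counts of aOPC replicate 2 lay in CpG islands against 2.38% to 3.32% in the other libraries. In sorted bulk cells, fewer cells of a type and less RNA per cell cannot be told apart.

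At the first steps, the RNA values of the principal isozymes were higher in aOL, although short of the threshold for a call. Hk1, the main hexokinase of brain, had levels of 11.31 and 11.03 in aOPC against 12.08 and 11.97 in aOL. Both aOL libraries lay above both aOPC libraries, a difference of 0.85 log2 units (SE 0.21; limma adjusted p = 0.15). Pfkl, the liver-type phosphofructokinase subunit, had levels of 11.03 and 10.82 in aOPC against 12.54 and 12.62 in aOL. The groups lay far apart relative to their spread, and the difference of 1.65 (SE 0.20) corresponds to 3.15-fold higher RNA in aOL (adjusted p = 0.106). Only Pfkl and Hk1 of the 10 genes had an unadjusted p under 0.05.

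Their isozymes overlapped between the populations. Hk2, the insulin-responsive hexokinase, was close to the low end of the files, with levels of 4.96 and 7.07 in aOPC against 6.74 and 6.34 in aOL. The aOPC libraries held both its lowest and its highest value. Pfkm, the muscle-type subunit, had levels of 8.82 and 8.55 in aOPC against 8.71 and 9.27 in aOL (difference 0.31, SE 0.28). Pfkp, the platelet-type subunit, had levels of 9.25 and 8.21 in aOPC against 8.84 and 8.38 in aOL (difference -0.12, SE 0.44).

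From aldolase onwards, 4 of the remaining 5 genes had lower values in aOL without overlap, none at an unadjusted p under 0.05, and 29.9% of all tested genes were likewise lower without overlap. Aldoa, the most abundant of the 10 transcripts, had levels of 15.37 and 15.68 in aOPC against 15.27 and 15.28 in aOL. The groups did not overlap, but the difference of -0.25 (SE 0.21) was close to its error (adjusted p = 0.504). Pkm had levels of 14.50 and 14.20 in aOPC against 13.94 and 13.996 in aOL, without overlap (difference -0.38, SE 0.21, adjusted p = 0.334). These values sum the M1 and M2 isoforms of Pkm, which gene-level data do not separate.

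Aldoc had levels of 11.86 and 10.99 in aOPC against 10.34 and 10.999 in aOL, with a difference of -0.76 (SE 0.42). The higher aOL library was level with the lower aOPC library, so the groups overlapped. Of 9 markers of astrocytes, in which Aldoc is typically abundant, 2 had a difference above 0 and the other 7 below it (median -0.55), and at an unadjusted p under 0.05 there were 2 lower and 0 higher. These were Gjb6, with levels of 9.90 and 9.44 in aOPC against 7.13 and 6.44 in aOL (difference -2.88), and Gfap (-0.72). Gja1 was lower without overlap (-1.21), whereas Slc1a3, the most abundant of the 9, was higher without overlap (0.49). The log2 summed level of the list, 13.46 and 13.24 in aOPC against 13.29 and 13.41 in aOL, overlapped, and none of these genes was at 0. The part of such cells in the Aldoc values was not tested.

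Both lactate dehydrogenase genes had lower values in aOL. Ldha had levels of 11.39 and 12.13 in aOPC against 11.003 and 10.80 in aOL, a difference of -0.86 (SE 0.32, adjusted p = 0.215). The aOPC libraries differed from each other almost as much as the group means did. The red blood cell genes, 5 of 5 tested, had log2 summed levels of 11.20 and 14.54 in aOPC against 12.70 and 12.83 in aOL, highest in the library in which Ldha was highest. Their part in the Ldha values was not tested. Ldhb had levels of 12.74 and 12.55 in aOPC against 12.11 and 12.15 in aOL, a difference of -0.52 (SE 0.20, adjusted p = 0.215). For Ldhb the gap between the groups exceeded the spread within either.

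**Figure D1:**
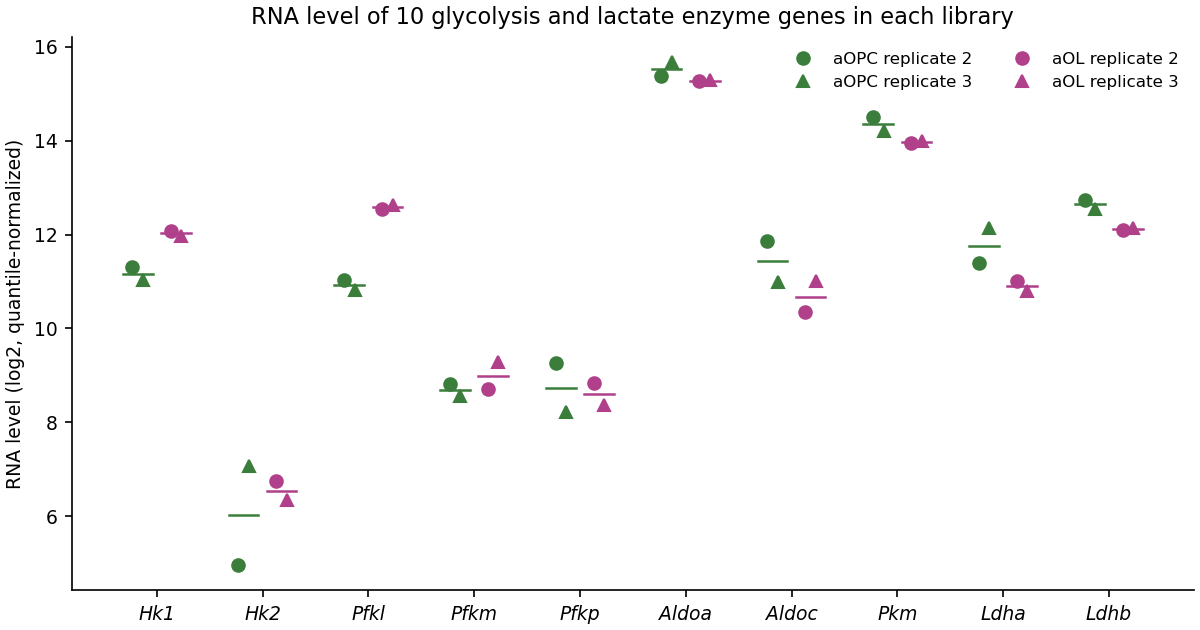
RNA level of each gene (log2, quantile-normalized) in each library. Green points are aOPC and magenta points aOL, circles are replicate 2 and triangles replicate 3, and bars are group means. Pfkl shows the widest gap, with aOPC at 11.03 and 10.82 and aOL at 12.54 and 12.62, while Hk2 spans 4.96 to 7.07 within aOPC.

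None of the 10 genes met the RNA threshold of limma p under 0.01 and p adjusted by Benjamini-Hochberg under 0.05, against 0.0808% of all tested genes. At an unadjusted p under 0.05, 2 of the 10 were higher in aOL and 0 were lower, where 12.1% and 12% of all tested genes were. The groups did not overlap for 2 genes higher in aOL (Hk1, Pfkl) and 4 lower (Aldoa, Pkm, Ldha, Ldhb), 6 of 10 in all. Of all tested genes 31.9% did not overlap and were higher, 29.9% did not overlap and were lower, and 61.8% did not overlap in either direction. These shares are near the background. The median difference over the 10 genes was -0.19, against 0.02 over all tested genes. By size of difference, Pfkl exceeded 96% of tested genes.

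The calls depended on which aOPC library was used. Without aOPC replicate 2, 34.2% of all genes were called, among them Pfkl (1.76, adjusted p = 0.0183), Hk1 (0.99, adjusted p = 0.02) and Ldha (-1.23, adjusted p = 0.0204). Without aOPC replicate 3, 17.7% of all genes were called, among them Pfkl (1.55, adjusted p = 0.0421) and Hk2 (1.58, adjusted p = 0.048). Hk2 was at -0.53 without aOPC replicate 2, so its direction rested on 1 library. Ldha was at -0.49 and Hk1 at 0.72 without aOPC replicate 3. No gene of the 10 was called without either aOL library. In these fits the population left with 1 library was assumed to vary like the other.

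Levels per kb of mRNA, which allow genes to be compared with each other, spanned over 10 log2 units. In aOPC the order was Aldoa (14.93 ± 0.22 log2 units per kb, mean ± SD, n = 2), Pkm (13.07 ± 0.21), Ldhb (12.26 ± 0.13), Ldha (10.94 ± 0.52), Aldoc (9.95 ± 0.62), Hk1 (9.22 ± 0.19), Pfkl (9.03 ± 0.15), Pfkm (7.16 ± 0.19), Pfkp (6.68 ± 0.74) and Hk2 (3.55 ± 1.49). Neighbours were separate in both libraries except Hk1 with Pfkl and Pfkm with Pfkp. In aOL, Pfkl (10.68 ± 0.06) followed Ldhb and stood above Ldha (10.08 ± 0.15) and Hk1 (10.08 ± 0.08), which overlapped, and Aldoc followed (9.19 ± 0.46). The first 3 and last 3 places were the same in both populations. Ldhb was above Ldha per kb in every library, by 1.79 and 0.86 in aOPC and by 1.54 and 1.79 in aOL.

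Whether the balance of isozymes differed between populations was asked from differences within each library, which a constant shift of that library would not alter but quantile normalization can. Pfkm minus Pfkl was -2.21 and -2.27 in aOPC against -3.83 and -3.35 in aOL. Pfkp minus Pfkl was -1.78 and -2.62 in aOPC against -3.71 and -4.24 in aOL. Both were lower in both aOL libraries, with differences between the populations of -1.35 and -1.78 log2 units. Both pairs share Pfkl and so repeat its RNA difference. The exact two-sided permutation p was 0.333 for both, the smallest that 2 libraries against 2 allow, and 0.833 after adjustment over the 5 pairs. The other 3 balances overlapped between the populations: Ldhb minus Ldha (1.35 and 0.42 in aOPC, 1.10 and 1.35 in aOL), Aldoc minus Aldoa (-3.51 and -4.69 in aOPC, -4.93 and -4.29 in aOL) and Hk2 minus Hk1 (-6.35 and -3.96 in aOPC, -5.34 and -5.63 in aOL).

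Enzymes of the steps between these genes are given from a list of other glycolysis genes, of which 15 of 24 were tested. None was called, 1 was higher and 2 were lower in aOL at an unadjusted p under 0.05, and the median difference was -0.27. Gapdh, which makes the NADH of the pathway, had levels of 15.25 and 15.30 in aOPC against 14.20 and 14.27 in aOL (difference -1.04, SE 0.19, limma adjusted p = 0.131). Eno1, the ubiquitous enolase, differed by -0.84 (SE 0.20, adjusted p = 0.149). Eno2, the enolase known from neurons, went the other way, with levels of 8.80 and 9.72 in aOPC against 11.15 and 11.10 in aOL (difference 1.86, SE 0.37, adjusted p = 0.133). Gpi1 (-0.04), Tpi1 (-0.18), Pgk1 (-0.48) and Pgam1 (-0.33) had p-values above 0.05, and of these Pgk1 did not overlap between the populations.

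**Figure D2:**
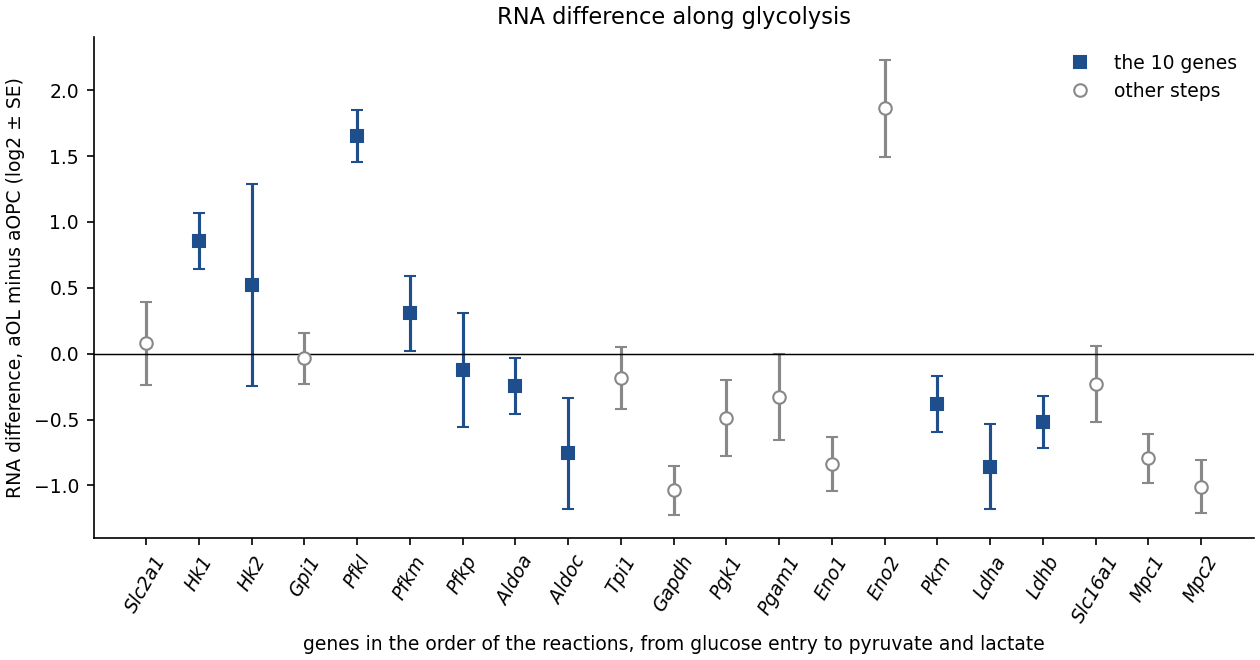
RNA difference between populations (aOL minus aOPC, log2, bars are SE of the limma fit, n = 2 per population) for genes in the order of the reactions. Filled squares are the 10 genes and open circles other steps; Pfkl lies at 1.65, Gapdh at -1.04 and Ldha at -0.86, with Eno2 at 1.86. The carriers Slc2a1 (0.08) and Slc16a1 (-0.23) were added as the ends of the route after their values were seen.

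Around the pathway, no gene of the remaining lists was called either. Counts at an unadjusted p under 0.05 are to be read against the 12.1% of all tested genes that were higher in aOL and the 12% that were lower, and in lists of this size a few such genes are near that background. Of 14 genes that bring pyruvate into mitochondria or act on it, 2 were lower in aOL at an unadjusted p under 0.05, namely the 2 subunits of the mitochondrial pyruvate carrier, Mpc2 (-1.01, SE 0.20, adjusted p = 0.133) and Mpc1 (-0.79, SE 0.19, adjusted p = 0.145). Of 7 carriers and their partners, Slc2a3, a glucose transporter known from neurons, was higher (1.26, adjusted p = 0.146), and Emb, a membrane partner of monocarboxylate transporters, had levels of 8.57 and 7.96 in aOPC against 4.69 and 2.83 in aOL (-4.51, SE 0.70, adjusted p = 0.122). Of 9 genes of side branches, Taldo1, a pentose phosphate enzyme, was lower (-0.73, adjusted p = 0.198). Of 11 regulators tested, 3 were higher and 0 lower: the hypoxia factors Epas1 (1.30, adjusted p = 0.134) and Hif1a (0.73, adjusted p = 0.153), and Tigar (0.66, adjusted p = 0.194), which lowers the activator of phosphofructokinase. Markers of endothelial cells, in which Epas1 is abundant, moved with it: 2 of 10 were in the files, Cldn5 at 0.33 and 1.80 in aOPC against 5.92 and 7.13 in aOL and Kdr with a difference of 0.69. Their log2 summed level was 9.07 and 9.37 in aOPC against 9.83 and 10.25 in aOL, and their part in these values was not tested. Of 5 neuron markers tested, 0 were higher in aOL and 1 was lower at an unadjusted p under 0.05.

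The genes whose pattern over the 4 libraries was closest to Ldha, by the root mean square distance of mean-centred log2 levels to 11132 other genes, were Mrpl46 (0.0108), Hyi (0.0125) and Ube2s (0.0243). For Ldhb they were Hnrnpa1 (0.00914), Bmyc (0.0155) and Eif1 (0.0169). With 4 libraries, many genes share such a pattern by construction, and the names are given as a description.

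RRHP reads DNA at CCGG sites, which the enzyme MspI leaves whole where the inner cytosine carries 5hmC that has been glucosylated. Counts were summed over the sites that the authors' exon or intron column gave to a gene, called the gene body here, and are given as CPM, the counts scaled to a common library total. Intervals are Wilson 95% intervals and cover counting error only, since reads carried no molecular identifiers. The sites shown next carried the most counts of their gene in Pkm, Hk1, Pfkl and Ldha. They are read on the strand of the counted cytosine from GRCm38, with the CCGG in capitals, at chr9:59660694-59660723 (minus strand, intron of Pkm), chr10:62317153-62317182 (plus strand, intron of Hk1), chr10:78000777-78000806 (plus strand, coding exon of Pfkl) and chr7:46852044-46852073 (minus strand, intron of Ldha).
Pkm: aaggccagtgtttCCGGgaatgctgcccat
Hk1: accaaagatgcttCCGGtaccatcttccgt
Pfkl: ggagcccaccagaCCGGcgatggtcaagtg
Ldha: ggaggggaagggaCCGGtatgggctgtata

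Pkm (chromosome 9, 59656576 to 59679372, GRCm38) had the lowest gene-body p of the 10. It held 289 and 517 counts in aOPC against 397 and 666 in aOL over 35 sites. Scaled to the libraries this was 40.6 CPM (36.2 to 45.6) and 30.2 CPM (27.7 to 32.9) in aOPC against 24.9 CPM (22.6 to 27.5) and 24.6 CPM (22.8 to 26.6) in aOL. Both aOL values lay below both aOPC values, a log2 fold change of -0.50 (SE 0.16, edgeR adjusted p = 0.323). With CpG island sites left out, Pkm stood at 36.0 and 28.9 CPM in aOPC against 24.1 and 23.2 CPM in aOL.

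Pfkl (chromosome 10, 77986947 to 78009807) held 125 and 307 counts in aOPC against 300 and 661 in aOL over 42 sites. Its values were 17.6 and 17.9 CPM in aOPC against 18.8 and 24.4 CPM in aOL, without overlap, but the interval of the lower aOL library (16.8 to 21.1) covered both aOPC values. The log2 fold change was 0.28 (SE 0.17, adjusted p = 0.75). Hk1 (chromosome 10, 62268855 to 62379920), the longest gene of the set, was the most deeply counted, with 1111 and 2906 counts in aOPC against 2728 and 4440 in aOL over 174 sites. At that depth its values of 156 and 170 CPM in aOPC against 171 and 164 CPM in aOL, as shares of their libraries, differed by a log2 fold change of only 0.03 (SE 0.13).

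Aldoa (chromosome 7, 126795234 to 126800994) had 20.2 CPM (17.2 to 23.8) in aOPC replicate 2 and 7.88 CPM (6.66 to 9.33) in aOPC replicate 3. The aOL libraries, at 7.16 and 8.72 CPM, lay around the second of these, so the log2 fold change of -0.75 (SE 0.35, adjusted p = 0.704) rested on 1 library and was 0.00 without it. Ldhb (chromosome 6, 142490249 to 142507957) had the same shape at low depth, with 6.33 and 3.33 CPM in aOPC against 3.64 and 3.81 CPM in aOL (45 to 103 counts a library), and it turned from -0.33 to 0.14 without aOPC replicate 2. Ldha (chromosome 7, 46842274 to 46855627) had 7.03 and 7.36 CPM in aOPC against 9.11 and 7.84 CPM in aOL (50 to 212 counts a library), with all 4 intervals overlapping. Pfkm (chromosome 15, 98092589 to 98132447) was nearly equal in the libraries, at 58.8 and 54.5 CPM in aOPC against 56.7 CPM in both aOL libraries.

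The remaining 3 gene bodies overlapped between the populations. Pfkp (chromosome 13, 6579874 to 6649060) had 55.2 and 68.2 CPM in aOPC against 71.3 and 66.1 CPM in aOL. Hk2 (chromosome 6, 82725025 to 82774454) had 33.6 and 42.0 CPM in aOPC against 41.9 and 45.5 CPM in aOL, the lowest again in aOPC replicate 2. Aldoc (chromosome 11, 78323073 to 78327781) had 6.47 and 9.05 CPM in aOPC against 8.35 and 10.8 CPM in aOL.

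**Figure D3:**
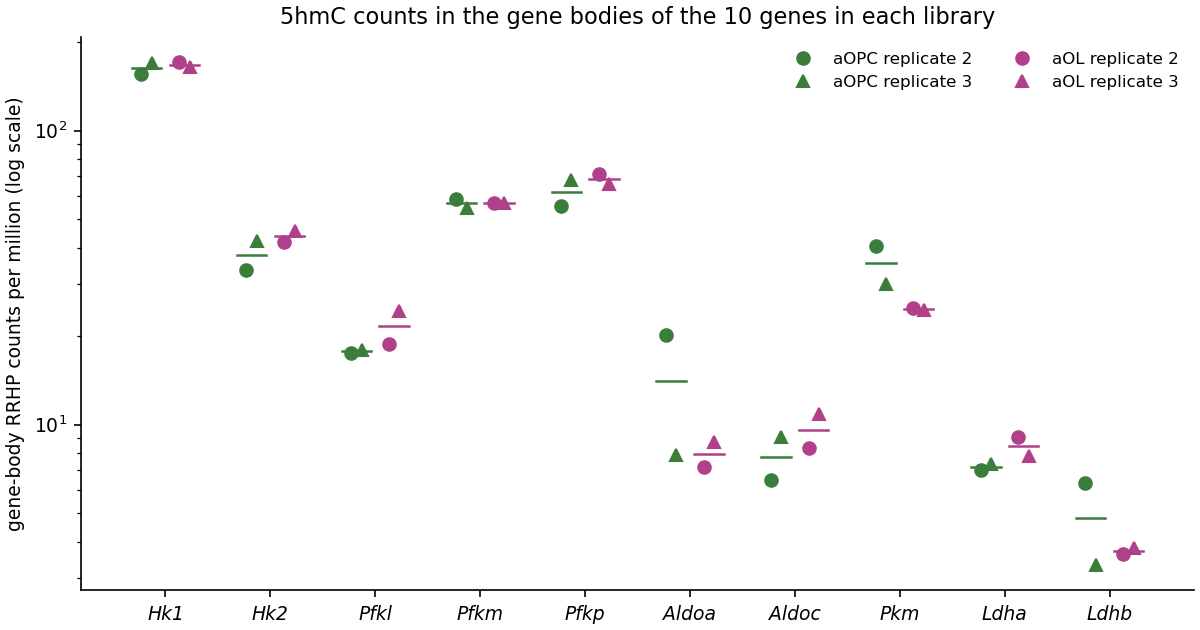
Gene-body RRHP counts (CPM) in each library on a log axis. Green points are aOPC and magenta points aOL, circles are replicate 2 and triangles replicate 3, and bars are group means. Pkm lies at 40.6 in aOPC replicate 2 and at 24.6 in aOL replicate 3, and Aldoa shows aOPC replicate 2 alone at 20.2.

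None of the 10 gene bodies was called by edgeR at an adjusted p under 0.05, against 0.849% of 18488 gene bodies, and DESeq2 also called none. At an unadjusted p under 0.05, 1 was lower (Pkm) and 0 higher, where 4.48% and 2.82% of all gene bodies were. Groups did not overlap for 2 genes higher in aOL (Pfkl, Ldha) and 1 lower (Pkm), beside 21% and 17.8% of all gene bodies, or 38.8% in either direction. The median log2 fold change was 0.08 over the 10 and -0.00 over all. Without aOPC replicate 3, 22.7% of all gene bodies were called, among them Aldoa (-1.32, adjusted p = 7.776e-09), Pkm (-0.71, adjusted p = 2.45e-05) and Hk2 (0.39, adjusted p = 0.0299). Pkm was at -0.31 (adjusted p = 0.35) without aOPC replicate 2. The one gene body called among 21 tested of the other glycolysis list was that of Gpi1, which interconverts glucose and fructose phosphates: 16.4 and 21.1 CPM in aOPC against 35.9 and 33.7 CPM in aOL, a log2 fold change of 0.85 (SE 0.16, adjusted p = 0.034). Its RNA difference was -0.04 (SE 0.19). Gpi1 lost the gene-body call without aOL replicate 2 (0.82, adjusted p = 0.161), without aOL replicate 3 (0.90, adjusted p = 0.0613) and with only sites of at least 3 reads in every library (0.72, adjusted p = 0.277).

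Counts depend on how many CCGG sites a gene has, so density was also taken per readable site, both strands of each CCGG counted. Readable sites were all those in the RefSeq span, also where the authors' columns gave a site to a promoter only or to no part of the gene. By this measure Pfkp (0.639 CPM per site, mean of the 4 libraries) exceeded 92.5% of 16865 genes with at least 5 CCGG, followed by Hk1 (0.52, 85.7%) and Pkm (0.485, 82.9%). Ldha was lowest (0.17, 32.7%), against a median of 0.252 over these genes. Its gene-body sum held 12 sites with reads, against 46 readable sites in its span. The part of this mismatch in its rank was not tested. Aldoa, whose RNA was the most abundant, was near the middle (51.9%). Its density was 0.482 in aOPC replicate 2 and 0.17 to 0.208 in the other libraries.

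RNA and gene-body differences had the same sign for 6 of the 10 genes: Hk1, Hk2 and Pfkl, with higher values in aOL, and Aldoa, Pkm and Ldhb, with lower values. Over 10388 genes with both measures 55.3% had the same sign. Ldha and Aldoc were lower in RNA and higher in gene-body counts (-0.86 with 0.22 and -0.76 with 0.27 on the log2 scale). Pfkp (-0.12 with 0.13) and Pfkm (0.31 with -0.003) also had opposite signs. Without 1 library, Ldha ran from -1.23 to -0.49 in RNA and from 0.12 to 0.32 in gene-body counts. Aldoc ran from -1.19 to -0.32 and from 0.07 to 0.59. Pfkl had the largest RNA difference of the set, and its gene-body value of 0.28 ran from 0.07 (without aOL replicate 3) to 0.46 (without aOL replicate 2). Neither met its threshold.

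**Figure D4:**
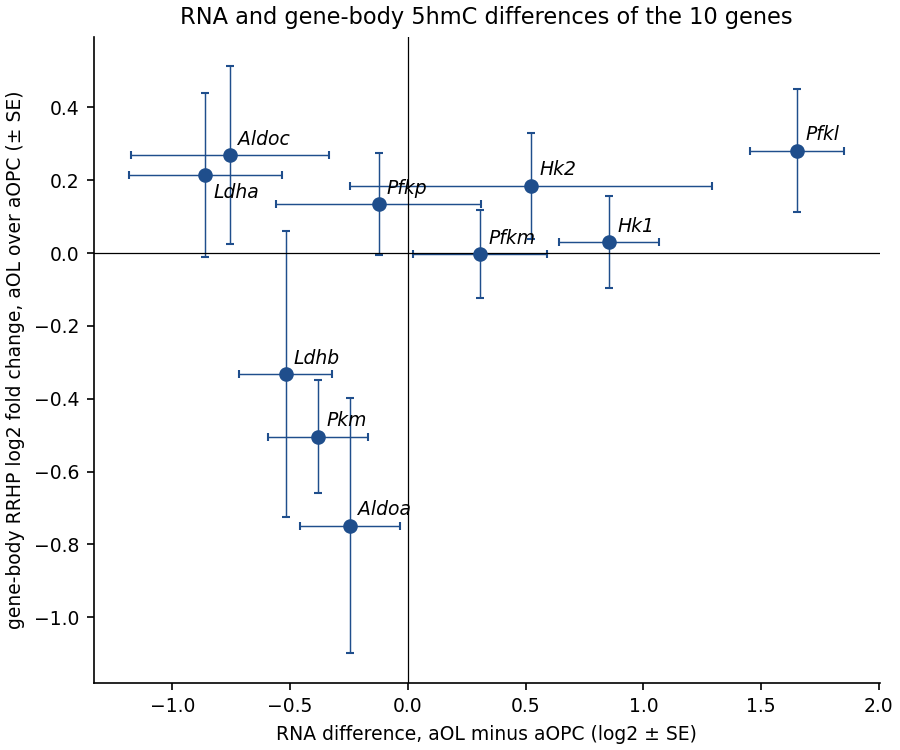
Each point is 1 of the 10 genes, with its RNA difference (aOL minus aOPC, log2) on the x axis and its gene-body RRHP log2 fold change on the y axis; bars are SE of the limma and edgeR fits (n = 2 per population and assay). Pfkl lies farthest to the right (1.65, 0.28), and Aldoa (-0.25, -0.75) and Pkm (-0.38, -0.50) lie lowest.

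Promoter counts were read against the sequence of the promoters themselves. RefSeq (GRCm38) gave 19 promoter entries for the 10 genes, each running from 250 bases before a transcript start to 50 after it. CCGG was present in 11 of the 19, and in 52.8% of all 32851 entries, so the rest could not be read by RRHP in this window. The letters ACGTG, the core of the hypoxia response element, or their reverse complement CACGT were in 9 of the 19 and in 19.6% of all entries, and the other form of that core, GCGTG or CACGC, was in 10 of the 19 and in 32.4% of all entries. Entries of 1 gene can overlap, and 2 of Aldoa share their ACGTG match, so the 19 are not independent. Both forms contain CG, and the entries were not matched for GC content or CpG density. The shares therefore cannot show an excess particular to this element. TATAAA on either strand was in 0 of the 19 and in 13.6% of all entries. The entry shown is the upstream one of the 2 entries of Ldha, chr7:46845554-46845853 (plus strand), since it held 5 matches to ACGTG over both strands, which 0.183% of all entries reach with 5 or more. The capitals mark these matches, which fall in 3 places because each of 2 CACGTG is a match on both strands.
Ldha: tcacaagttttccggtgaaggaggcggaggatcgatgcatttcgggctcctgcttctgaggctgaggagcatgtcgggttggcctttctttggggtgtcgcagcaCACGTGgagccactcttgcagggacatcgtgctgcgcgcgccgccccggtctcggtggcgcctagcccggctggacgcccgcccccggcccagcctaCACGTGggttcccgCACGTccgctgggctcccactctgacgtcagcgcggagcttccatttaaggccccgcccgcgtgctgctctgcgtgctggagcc

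This Ldha window also held 4 CCGG, and 4 sites with reads were listed in it, with 8 and 15 counts in aOPC against 7 and 27 in aOL. These counts are too few for a comparison. The Pfkl promoter, chr10:78009758-78010057 (minus strand), is shown as that of the gene with the largest RNA difference, with its 3 CCGG in capitals. Its 4 listed sites held 11 and 6 counts in aOPC against 4 and 19 in aOL, again few.
Pfkl: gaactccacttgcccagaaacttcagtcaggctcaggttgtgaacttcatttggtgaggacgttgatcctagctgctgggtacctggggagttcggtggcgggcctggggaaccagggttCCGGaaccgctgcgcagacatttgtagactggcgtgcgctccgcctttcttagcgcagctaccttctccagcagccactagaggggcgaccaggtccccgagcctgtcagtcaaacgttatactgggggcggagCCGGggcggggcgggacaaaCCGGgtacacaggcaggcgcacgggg

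Over the authors' own promoter column, which reaches beyond these windows, 9 of the 10 genes were tested and none was called by edgeR, against 0.768% of 14579 promoters. None had an unadjusted p under 0.05, against 5.97% of all promoters, and DESeq2 called none. Aldoc had the most promoter counts, with 14.1 and 18.8 CPM in aOPC against 20.7 and 16.3 CPM in aOL (log2 fold change 0.51, SE 0.66, with TMM scaling and 0.16 with library totals). Pkm had 5.76 and 1.69 CPM in aOPC against 1.26 and 1.81 CPM in aOL (-0.56, SE 0.41, adjusted p = 0.998). Hk1, with 2 promoter sites and 4 to 8 counts a library, was too low to test. Promoter directions depended on the scaling. With TMM the median of all promoters was -0.01 and with library totals -0.60, and the median of the 9 moved from 0.08 to -0.57, so that Hk2, Pfkm, Pfkp and Ldhb turned from higher to lower values.

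At single sites, none of the 194 tested was called by edgeR at an adjusted p under 0.05, against 2.29% of 443062 tested sites. At an unadjusted p under 0.05, 3 were higher in aOL and 7 lower, where 5.45% and 4.31% of all tested sites were. The 7 lower sites were 4 in Pkm and 3 in Hk1, and the 3 higher were 1 in Hk1 and 2 in Hk2. The Pkm site printed above, at position 59660709, held 93 and 115 counts in aOPC against 87 and 111 in aOL. This was 13.1 and 6.72 CPM in aOPC against 5.46 and 4.10 CPM in aOL, a log2 fold change of -1.15 (SE 0.35, adjusted p = 0.156). It lay 4341 bases past the mRNA start and held 21.4% of the counts of Pkm. It was the one site of the 10 genes called without aOPC replicate 3 (-1.70, adjusted p = 0.0381), when 0.687% of all tested sites were called.

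The 3 other Pkm sites with a p under 0.05 were picked after their values were seen. Of these, 2 lay within 100 bases of the first, at chr9:59660602-59660631 (plus strand) and chr9:59660735-59660764 (minus strand), and had log2 fold changes of -1.47 (adjusted p = 0.236) and -1.14 (adjusted p = 0.424). The first of them held 10 and 28 counts in aOPC against 6 and 20 in aOL, and the second 19 and 25 in aOPC against 18 and 22 in aOL. Their sequences follow, with the CCGG in capitals.
Pkm upstream: gctccgggctgagCCGGtgcctcctgttgc
Pkm downstream: cagaagtttctgtCCGGttggcacatgcgg

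The most counted site of each other gene overlapped between the populations, except that of Pfkm. The Hk1 site held 4.78 and 8.82 CPM in aOPC against 7.54 and 6.32 CPM in aOL, and 4.26% of the counts of its gene, so that no single site carried Hk1. The Pfkl site, in a coding exon, held 2.11 and 3.15 CPM in aOPC against 2.51 and 4.21 CPM in aOL. The Ldha site held 37.2% of the counts of its gene, with 2.25 and 4.21 CPM in aOPC against 4.65 and 2.96 CPM in aOL. The Pfkm site, in an intron of the longer transcript, had 6.75 and 6.13 CPM in aOPC against 5.09 and 5.54 CPM in aOL (log2 fold change -0.37, adjusted p = 0.763). For Pfkp (8.25 ± 1.72 CPM in aOPC against 9.85 ± 1.96 in aOL, SD, n = 2), Hk2 (4.55 ± 0.67 and 4.19 ± 0.60), Aldoc (4.43 ± 1.496 and 5.12 ± 1.55), Aldoa (2.38 ± 1.21 and 1.71 ± 0.60) and Ldhb (1.42 ± 0.77 and 1.04 ± 0.41) the difference between means was below the larger of the group SDs.

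**Figure D5:**
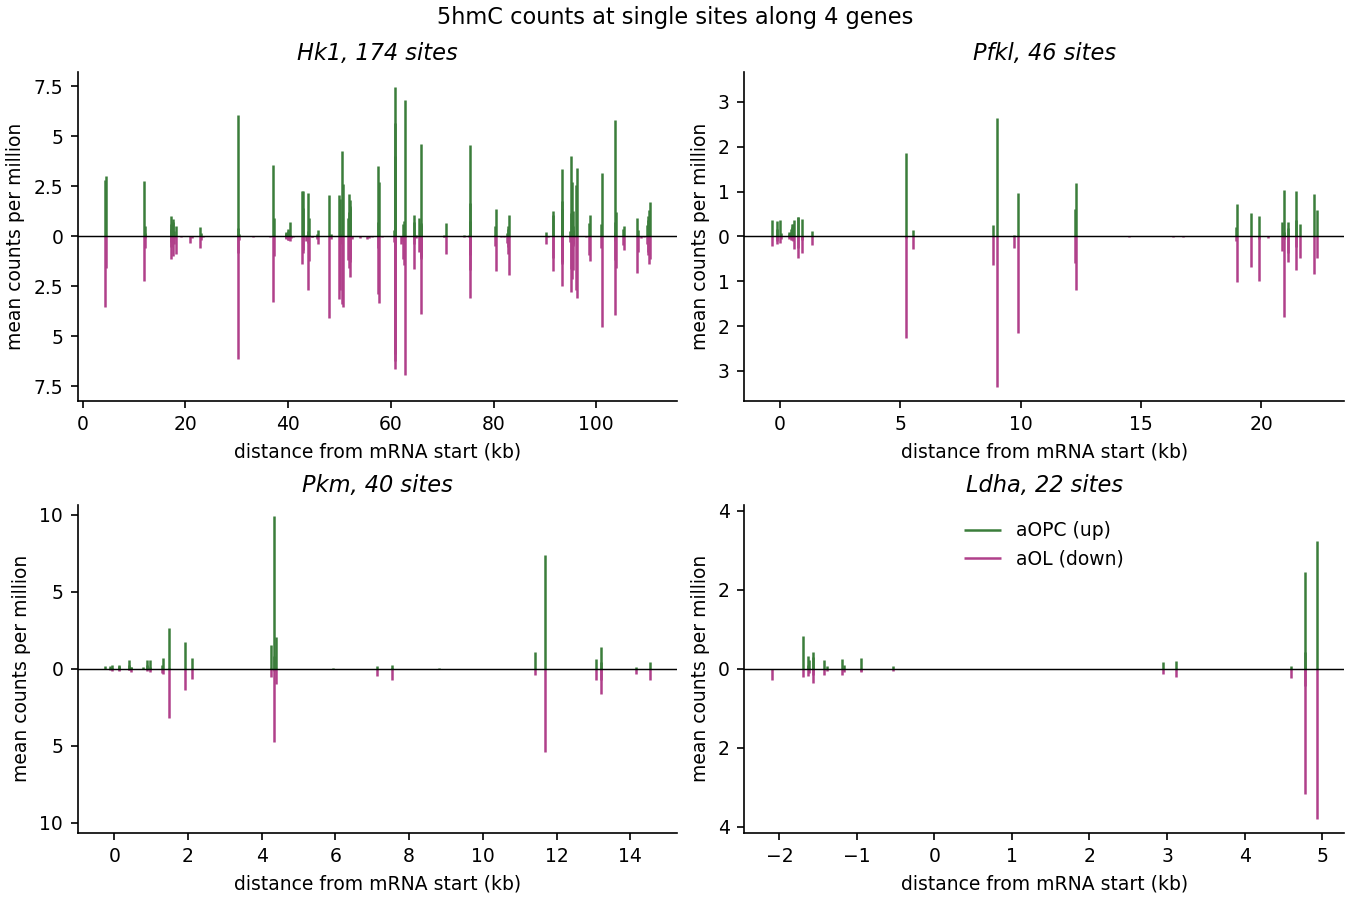
Mean CPM of every listed site of Hk1, Pfkl, Pkm and Ldha by distance from the mRNA start of the principal transcript (kb), with the mean of the 2 aOPC libraries drawn upwards and of the 2 aOL libraries downwards. In Pfkl, Pkm and Ldha counts are low around the start and high at a few sites inside the gene; the tallest Pkm line is 9.90 in aOPC against 4.78 in aOL.

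Since the populations came from different reporter lines, the surroundings of each gene were also examined for sites read in 1 population only, taken as tested sites with at most 3 counts in both libraries of the other. No tested site in any of the 10 genes was of this kind, while 3.02% of tested sites genome-wide were. In windows of 5 Mb the share was 6.07% around Ldha, rank 48 of 529 windows, and 1.06% to 1.82% around the other 9 genes, against a median of 1.89%.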

How the data were processed

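The deposited RNA values are log2 levels per gene. By the study's methods, reads were aligned to mm10 with BWA, those placed uniquely in exons were counted with featureCounts, and DESeq2 served for normalization by the authors. Nearly equal quantiles in the 4 files mark quantile normalization, which removes a difference shared by most genes. Read depth per gene is unknown for these files. Uniquely aligned reads can understate genes with processed pseudogenes, such as Aldoa, Ldha and Gapdh. The deposited RRHP files give raw counts of reads for each strand of a CpG site, with the authors' promoter, exon and intron columns. The aligner and duplicate handling are not given in the sources used here. A site absent from a file was given a count of 0, and every site lay at a CCGG of GRCm38.

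limma 3.58.1, with population as the only term, was fitted to the genes that reached a log2 level of 5 in 2 or more libraries. edgeR 4.0.16 (quasi-likelihood, TMM on library totals, filterByExpr for sums) was fitted to the RRHP counts of all gene bodies, promoters, and single sites that reached 10 reads in 2 or more libraries. DESeq2 1.42.0, other scalings and filters, and leaving out each library were alternatives. The p-values of these fits were adjusted by Benjamini-Hochberg over all features tested, and those of the isozyme balances over the isozyme pairs alone. The floor, 3 counts, is 0.111 to 0.422 CPM. R 4.3.3 and Python 3.11.15 were used, and both tests were checked on simulated data. The 2 libraries of a group are biological replicates per the methods, and their number limits every p-value.

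The 10 genes and the lists of other genes were chosen with earlier results of these data known. Genes outside the 10 were named if called, if among the 3 smallest p-values under 0.05 of their list, or if they catalyse a step between the 10; single sites if called or the most counted of their gene; markers if first in their list or where a result turned on them. Levels per kb used principal GENCODE mRNA lengths, and gene spans came from RefSeq.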

Additional observations from a re-analysis of the deposited data

How the results depend on the processing

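For RNA, the number of the 10 genes called stayed at 0 under every alternative scaling, filter, limma option and the replicate block; it was 2 at an unadjusted p under 0.05 and 0 to 3 when each library was left out in turn. The median difference of the 10 genes, -0.19, became -0.25 with a log2 level of at least 8 in every library, which leaves out Hk2, and ran from -0.30 to -0.11 over the left-out libraries. Over all genes 9 were called, 0 without the filter, 1 with the level of 8, 23 with a trend, 0 with array weights, 127 with the replicate block, and 106 to 3805 without 1 library. Without 1 library Hk2 ran from -0.53 to 1.58 and Pfkp from -0.65 to 0.40. Of the isozyme balances, Ldhb minus Ldha ran from -0.12 to 0.80, Aldoc minus Aldoa from -1.10 to 0.079 and Hk2 minus Hk1 from -1.52 to 0.86. Pfkm minus Pfkl ran from -1.59 to -1.10 and Pfkp minus Pfkl from -2.20 to -1.36, whose sign could not turn because their groups do not overlap. The cause was not tested.

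For gene bodies, 1 of the 10 had an unadjusted p under 0.05, and 0 to 3 were called without 1 library, with medians from 0.038 to 0.19. The sign turned for Pfkm with library totals (0.0063) and for Hk1 with only sites of at least 3 reads in every library (-0.030), and, over the left-out libraries, for Hk1 (-0.039 to 0.11), Pfkm (-0.044 to 0.036), Pfkp (-0.012 to 0.32), Aldoa (-1.32 to 0.0039) and Ldhb (-0.75 to 0.14). Over all gene bodies 157 were called, 10 with only sites of at least 3 reads in every library and 84 to 4205 without 1 library. For promoters, 112 were called over all genes, 67 by DESeq2, 219 without a filter, 38 with only sites of at least 3 reads and 62 to 1608 without 1 library. Library totals turned Hk2 (-0.57), Pfkm (-0.21), Pfkp (-0.29) and Ldhb (-0.43), and sites of at least 3 reads turned Pfkl (0.018) and Ldhb (-0.23). Without 1 library the promoter values ran from -0.15 to 0.38 for Hk2, -0.22 to 0.11 for Pfkl, -0.075 to 0.67 for Pfkm, -0.20 to 0.59 for Pfkp, -0.25 to 0.15 for Aldoa, -0.063 to 1.47 for Aldoc, -0.36 to 0.20 for Ldha, -0.029 to 0.27 for Ldhb and -0.85 to -0.20 for Pkm, which was at -1.24 with library totals. Of the sites of the 10 genes, 10 had an unadjusted p under 0.05 and 0 to 1 were called without 1 library; over all sites 10154 were called, 490 with at least 10 reads in every library and 3044 to 11708 without 1 library.

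Same-numbered libraries come from different reporter lines, and their deviations did not go together (r of -0.07 for RNA, -0.42 for gene bodies and for promoters), so the numbers were not taken as pairs. With the replicate block 0 of the 10 genes were called in RNA, gene bodies or promoters and 0 of their sites. With the numbers crossed, an alternative chosen after seeing the data, 2 of the 10 gene bodies were called (Aldoa and Pkm, both lower) beside 718 of all gene bodies, and 0 promoters beside 337 of all. With 2 libraries a group and 45 to 212 counts a library for the gene bodies of Ldha and Ldhb, small differences were not detectable at this depth.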
